A study of Homo sapiens with 12 samples.

Results

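The transcripts described here are the well expressed long non-coding RNAs (lncRNAs, transcripts that are not translated into a protein) of the established cell line TMD8, which was derived from a human diffuse large B cell lymphoma and belongs to its activated B cell subtype. They are the rows of the deposited gene table with the biotype lncRNA and a mean of at least 10 CPM (a gene's count scaled to a library total of 1000000) over all 12 libraries. Names beginning with SNHG and the names GAS5, ZFAS1 and DLX6-AS1 were left out by the same rule. This gave 249 of 26318 rows and of 5800 lncRNA rows, while 18 rows at that level were left out by name. They were chosen by their measured level, the mean CPM of both groups, so the level is a description, and the change between the groups was not part of the rule. In the group means, 221 of the 249 reached 10 CPM in both groups, 19 in the control only and 9 in the IRF4 shRNA group only.

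Poly(A) RNA was sequenced from 6 libraries labelled control and 6 labelled IRF4 shRNA. The control cells received a scramble short hairpin RNA (shRNA, which lowers the RNA of its target) and the others an shRNA against IRF4, a transcription factor of the interferon regulatory factor family on which lymphoma cells of this subtype are known to depend. The numbers in the library names divide them into 2 series of 3 control and 3 IRF4 shRNA libraries, called library series 1 (replicates 1 to 3) and 2 (replicates 4 to 6) here, and the labels do not say what a series is. They do not say either how many hairpins were used, how the cells received them, or whether replicates were separate cultures, so p-values measure the spread between these libraries, which may be technical. Every title names TMD8, while the number in a second cell line label counts upward with the sample.

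IRF4 lay between 1427 and 1571 CPM in the control libraries and between 507 and 716 CPM with IRF4 shRNA, which is 41.3% of control (two-sided exact permutation p = 0.00216, n = 6 per group, the smallest this design allows). It fell to 34.7% of control in library series 1 and to 47.9% in series 2. Library totals ranged from 31292705 to 38180365 counts. All 6 B cell markers checked were well expressed, with a summed level of 4530 to 5113 CPM in controls and 6479 to 6814 CPM with IRF4 shRNA. T cell markers summed to at most 1.29 CPM and myeloid markers to at most 1.91 CPM. Fibroblast markers, mostly COL1A1, summed to 3.76 to 5.27 CPM in controls and 5.71 to 7.41 CPM with IRF4 shRNA. Of 4 epithelial markers KRT18 was at 0 and CDH1 held nearly all of the summed 60.9 to 78.4 CPM in controls and 20.8 to 34.0 CPM with IRF4 shRNA.

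LncRNAs act in several ways. Some build nuclear bodies, some bind proteins or microRNAs, some are the precursors from which microRNAs are cut, and some are made from the promoter of a protein-coding gene in the opposite direction, where the act of transcription rather than the RNA may matter. Many are retained in the nucleus and are degraded by the nuclear exosome. In B cells the best known are the host transcripts of microRNAs such as miR-155, miR-146a and miR-142.

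The 249 lncRNAs together held 0.997% ± 0.0391 (SD, n = 6) of all counts in the controls and 1.002% ± 0.0169 (SD, n = 6) with IRF4 shRNA. A fold change below is the IRF4 shRNA group over the control, from edgeR's quasi-likelihood test over all 16437 genes that passed its filter on low counts, and a gene is called where the Benjamini-Hochberg adjusted p is under 0.05. All 249 were tested. Of them 47 rose (18.9%, where 24.2% of all tested genes rose) and 93 fell (37.3%, where 23.9% of all tested genes fell). In either direction 140 were called, 56.2% against 48.2% of all tested genes and 53.3% of all tested genes with a mean of at least 10 CPM, of which 25.8% rose and 27.5% fell. The median log2 fold change was -0.08 for the 249, -0.01 for all tested genes and -0.004 for all genes at 10 CPM or more. Of the 221 that reached 10 CPM in both group means, 39 rose (17.6%) and 74 fell (33.5%), 51.1% in either direction, and of 1780 tested lncRNA rows under 10 CPM 242 rose and 366 fell.

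Most of these changes were small. Of the 47 that rose 32 did so by less than 1.5-fold, as did 69 of the 93 that fell. At least 2-fold, 5 rose (5.65% of all tested genes did) and 8 fell (2.74% of all tested genes did). Of the 9453 tested genes with a mean of at least 10 CPM, 257 rose and 117 fell by that much. An lncRNA that reached the mean of 10 CPM only through its higher group had to differ between the groups, and among the 221 at 10 CPM in both groups 3 rose and 3 fell by 2-fold or more. In 32 lncRNAs every IRF4 shRNA library lay above every control library (16.2% of all tested genes), and in 66 every control library lay above (14.7%). Among the 9453 genes with a mean of at least 10 CPM these counts were 1674 and 1733. The split of the calls depended on the scaling: scaled by library size without TMM factors, 68 rose and 75 fell, while 5257 of all genes rose and 2968 fell, and the medians were -0.01 for the 249 and 0.07 for all genes.

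**Figure D1:**
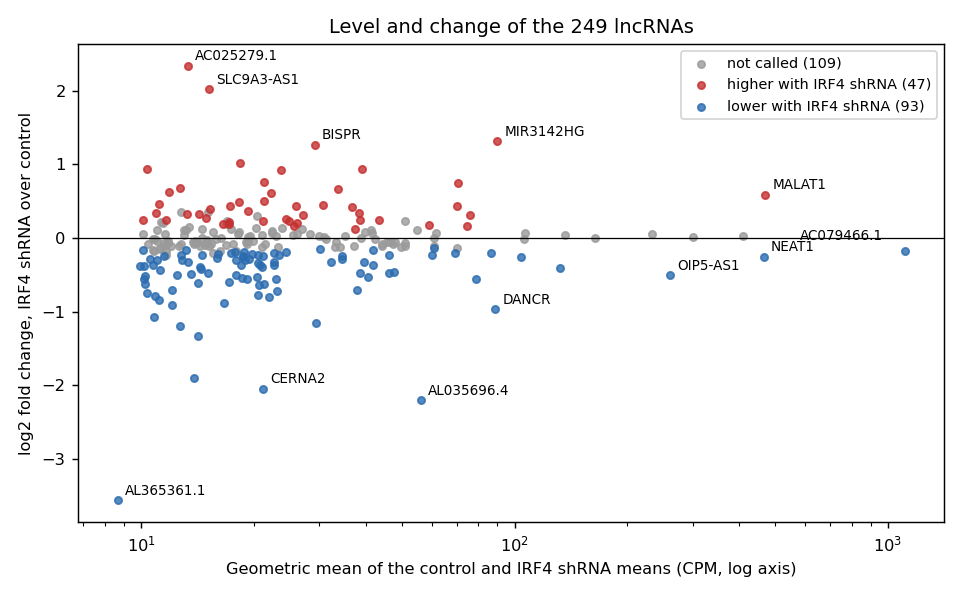
Each point is 1 of the 249 lncRNAs, by the geometric mean of its 2 group means (CPM, log axis) and its log2 fold change, coloured by the call. Points called lower (93) outnumber those called higher (47), and most lie within 1 log2 unit of no change.

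By the kind of name, 24 of the 64 antisense transcripts (named for a gene on the other strand) fell and 14 rose. Of the 34 intergenic LINC transcripts 16 fell and 5 rose, and of the 97 with a clone name 34 fell and 14 rose. The clone-named share that fell was 35.1%, beside 37.3% of all 249. All 4 calls among the 6 transcripts named as divergent were falls. On chromosome 19, which held the most of these lncRNAs (22), 8 rose and 4 fell, beside 279 higher and 164 lower of 1051 genes tested there, and on chromosome 2 5 of 20 rose and 13 fell, beside 244 higher and 281 lower of 1107 genes tested there.

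Expression was concentrated in few transcripts. The most abundant one held 11.1% of the summed CPM of the 249, the first 3 held 20.6% and the first 10 held 37.0%. AC079466.1 (chr19:28606688-28615229, plus strand, hg38), an lncRNA with no nearer protein-coding gene than UQCRFS1 at 590 kb, was first with 1180.2 ± 84.9 CPM in the controls and 1047.9 ± 55.5 CPM with IRF4 shRNA (mean ± SD, n = 6 each). Its libraries overlapped, and its fall was small (log2 fold change -0.17, SE 0.05, edgeR adjusted p = 0.00941). This call was lost with library size alone, in library series 2 alone and with counts summed within each series. Per kilobase of exon the control level of AC079466.1 was 265 CPM, against 101 for AC004687.1, 81.8 for LINC00926, 62.4 for EBLN3P, 54.2 for DANCR, 43.4 for MALAT1 and 22.3 for NEAT1.

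MALAT1 and NEAT1 are made from neighbouring genes on chromosome 11. MALAT1 sits in nuclear speckles beside splicing factors, NEAT1 is the RNA scaffold of paraspeckles, and the ends of both are cut by RNase P. The counts are per gene and from poly(A) RNA, so forms of either RNA with different ends were not told apart. Forms without a poly(A) tail may be missed. MALAT1 (chr11:65497688-65506516) was between 347 and 432 CPM (median 383) in controls and between 519 and 635 CPM (median 577) with IRF4 shRNA, and no control library reached the lowest IRF4 shRNA library. It rose 1.503-fold (log2 fold change 0.59, SE 0.06, edgeR adjusted p = 1.45e-06). NEAT1 (chr11:65422774-65445540) was between 476 and 529 CPM (median 514) in controls and between 395 and 471 CPM (median 413) with IRF4 shRNA, again without overlap. It fell 1.19-fold (log2 fold change -0.26, SE 0.05, edgeR adjusted p = 0.000378), a call lost with counts summed within each series. The 2 RNAs changed in opposite directions.

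The counts of gene lists here and below stand beside 24.2% higher and 23.9% lower among all tested genes. Of 22 genes for paraspeckle proteins, the partners of NEAT1, 8 fell and 2 rose. NONO, a core paraspeckle protein, was at 582 CPM in the controls and 479.6 CPM with IRF4 shRNA (log2 fold change -0.28), and RBMX fell by 0.29 and HNRNPH3 by 0.31 on the log2 scale. SFPQ, another core protein, rose by 0.09 on that scale. Of 11 genes for RNase P and related end-processing factors POP1 rose (log2 fold change 0.32) and the other 10 were not called. Of 23 genes of the nuclear exosome and of RNA decay 6 fell, among them the exosome subunits EXOSC1 (-0.30), EXOSC5 (-0.28) and EXOSC8 (-0.24, all log2 fold changes), and SMG5 rose by 0.13.

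Of the other abundant lncRNAs with a known role, OIP5-AS1 (chr15:41283990-41309737), also called cyrano and known for binding miR-7, was between 263 and 331 CPM (median 322) in controls and between 215 and 221 CPM (median 219) with IRF4 shRNA, and fell 1.42-fold (log2 fold change -0.50, SE 0.05, edgeR adjusted p = 6.81e-07). The IRF4 shRNA libraries were nearly equal, with all controls above them. NORAD, which binds Pumilio proteins, was at 228 ± 11.2 CPM in the controls and 237.5 ± 8.32 CPM with IRF4 shRNA. LINC00926 was at 300.1 ± 20.3 and 301.9 ± 17.7 CPM, and EBLN3P, derived from an ancient bornavirus insertion, at 405 ± 37.7 and 412.5 ± 18.4 CPM (mean ± SD, n = 6 each). None of these last 3 was called. KCNQ1OT1, the imprinted antisense transcript of KCNQ1, rose from 31.6 ± 4.22 to 42.4 ± 7.39 CPM with overlapping libraries (log2 fold change 0.42, edgeR adjusted p = 0.00616, not called with counts summed within each series). Of the 9 tested RNAs on a list of nuclear body and chromatin RNAs, 7 of them among the 249, 2 rose and 3 fell.

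For the lncRNAs with the largest falls, the nearest protein-coding genes are given beside them. AL365361.1 (chr1:110653560-110657040, minus strand) had 20.99 to 36.6 CPM (median 30.7) in controls and 1.48 to 3.44 CPM (median 2.57) with IRF4 shRNA, an 11.9-fold fall (log2 fold change -3.57, SE 0.21, edgeR adjusted p = 2.95e-09). Every control library was more than any IRF4 shRNA library by a wide margin. KCNA3, the voltage-gated potassium channel of lymphocytes, lies 15.4 kb from it, with 21.4 to 26.1 CPM (median 24.2) in controls and 1.16 to 3.07 CPM (median 1.92) with IRF4 shRNA. The log2 fold change of KCNA3 was -3.58 (SE 0.18, edgeR adjusted p = 5.34e-10), next to -3.57 for the lncRNA.

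AL035696.4 (chr6:184339-186899, plus strand) lies near the end of the short arm of chromosome 6, 204.9 kb before the start of IRF4 itself. It had 111 to 129.7 CPM (median 122) in controls and 24.5 to 27.3 CPM (median 26.2) with IRF4 shRNA, a 4.61-fold fall (log2 fold change -2.21, SE 0.04, edgeR adjusted p = 1.37e-14). The libraries of each group lay close together and far from the other group. DUSP22, a phosphatase gene between them, lies 104.7 kb from the lncRNA and fell from 326 ± 5.77 to 238 ± 13.4 CPM (log2 fold change -0.45).

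CERNA2 (chr10:84167228-84172093, minus strand) had 39.8 to 48.9 CPM (median 41.5) in controls and 9.46 to 12.3 CPM (median 10.2) with IRF4 shRNA, a 4.14-fold fall without overlap. Its nearest protein-coding gene GHITM, of the mitochondrial inner membrane, had a log2 fold change of -0.20, which was not called in series 2 alone or with counts summed within each series. XXYLT1-AS2 (chr3:195147871-195152790, plus strand) runs opposite to XXYLT1, an enzyme that adds xylose to Notch. It had 25.1 to 28.5 CPM (median 26.9) in controls and 4.63 to 9.47 CPM (median 7.24) with IRF4 shRNA, and fell 3.73-fold, while XXYLT1 fell 1.90-fold (from 40.3 ± 3.11 to 21.2 ± 3.68 CPM). LINC02175 fell 2.30-fold, and its neighbour LCMT1, a methyltransferase of phosphatase PP2A, 1.35-fold. LINC00884 fell 2.10-fold, and ATP13A3, which it overlaps on the other strand, was at 202 ± 23.4 CPM in the controls and 214 ± 8.12 CPM with IRF4 shRNA (not called).

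Several falls came in pairs that start back to back. Z99572.1 (chr1:169486076-169500182) starts 132 bases from SLC19A2, a thiamine transporter gene on the other strand. It had 35.6 to 49.0 CPM (median 45.5) in controls and 17.9 to 22.1 CPM (median 19.7) with IRF4 shRNA, and fell by 1.15 on the log2 scale, beside a log2 fold change of -1.204 for SLC19A2. LINC02245 starts 198 bases from CEP68, a centrosome gene, and the log2 fold changes were -1.33 and -0.80. ZEB1-AS1 shares its start region with ZEB1, a zinc finger repressor, and fell from 16.6 ± 1.37 to 8.84 ± 0.849 CPM, with log2 fold changes of -0.91 and -0.79. All 6 of these genes fell without overlap between the groups.

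DANCR (chr4:52712325-52723623), an lncRNA known for holding back differentiation, was the most abundant of the transcripts that fell by nearly 2-fold. It had 114 to 133 CPM (median 123) in controls and 59.0 to 66.8 CPM (median 64.2) with IRF4 shRNA, and fell 1.95-fold (log2 fold change -0.97, SE 0.05, edgeR adjusted p = 3.53e-10). LINC-PINT, an RNA induced by p53, fell from 14.97 ± 0.589 to 8.31 ± 0.654 CPM (log2 fold change -0.85), while MKLN1, which starts 80 bases away on the other strand, was not called (-0.03). CYTOR, named as a cytoskeleton regulator RNA and described in cancers, fell from 54.3 ± 2.28 to 39.0 ± 2.76 CPM (log2 fold change -0.48), and LINC01215 from 27.9 ± 1.54 to 18.9 ± 0.779 CPM (log2 fold change -0.56). Of 8 tested lncRNAs linked to p53, 4 of them among the 249, 2 rose and 4 fell. Of 12 tested lncRNAs of B cells and lymphoma, 8 of them among the 249, 5 rose and 5 fell. PVT1, which lies 51.6 kb from MYC, rose from 19.6 ± 1.04 to 23.1 ± 1.23 CPM (log2 fold change 0.24, not called with counts summed within each series), while MYC was not called (-0.03).

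**Figure D2:**
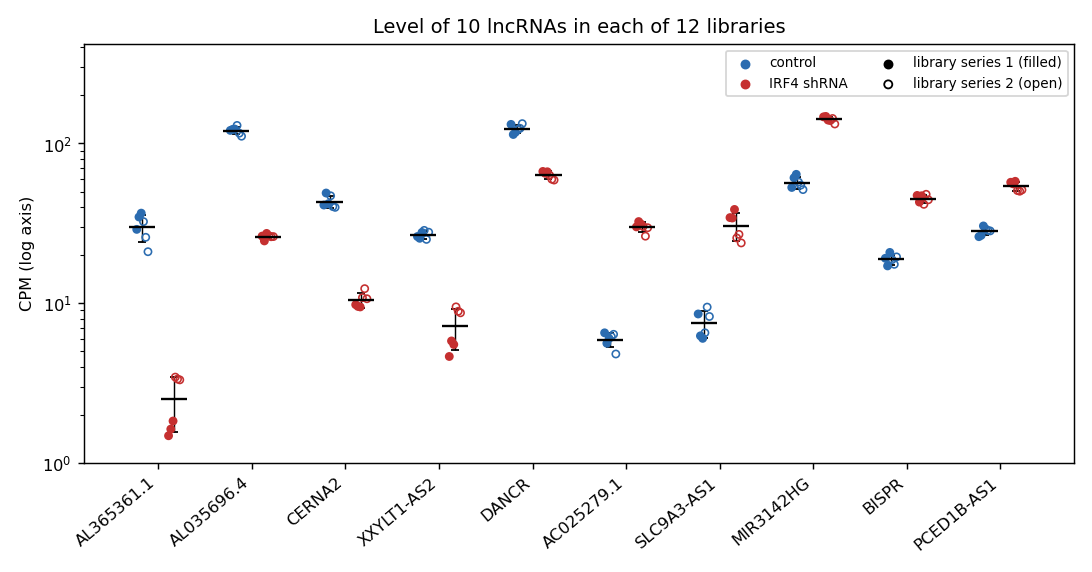
The CPM (log axis) of 10 lncRNAs in each of the 12 libraries, with filled points for library series 1 and open points for series 2, and the mean and SD (n = 6) of each group in black. The 10 were taken from the largest called changes in these same libraries, so the lack of overlap between their groups is a description. AL365361.1, XXYLT1-AS2, AC025279.1 and SLC9A3-AS1 had a mean under 10 CPM in their lower group. In AL365361.1 and XXYLT1-AS2 the IRF4 shRNA libraries of series 1 lie below those of series 2.

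The largest rise was in AC025279.1 (chr16:29291220-29372110, plus strand), which had 4.80 to 6.51 CPM (median 6.09) in controls and 26.3 to 32.4 CPM (median 30.1) with IRF4 shRNA. It rose 5.07-fold (log2 fold change 2.34, SE 0.08, edgeR adjusted p = 3.34e-12). It lies in a region of duplicated genes, 9.2 kb from NPIPB11, so that reads could be divided between near-identical copies. NPIPB11 was at 6.09 ± 0.684 CPM in the controls and 6.70 ± 0.947 CPM with IRF4 shRNA (not called). SLC9A3-AS1 (chr5:473236-480884, plus strand) had 6.01 to 9.44 CPM (median 7.38) in controls and 23.8 to 38.6 CPM (median 30.5) with IRF4 shRNA, a 4.07-fold rise without overlap. SLC9A3, a sodium-proton exchanger gene opposite to it, was at 4.50 ± 0.854 and 3.79 ± 0.456 CPM (not called).

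On a short list of lncRNAs linked to interferon and inflammation 5 of 8 tested rose and 1 fell, where 24.2% of all tested genes rose and 23.9% fell. Of the 8, 6 are among the 249, and IRF1-AS1, 1 of the 5 that rose, is not. NRAV, 1 of the 249 and named as a negative regulator of the antiviral response, was not on the list. It fell from 26.8 ± 1.54 to 15.7 ± 0.778 CPM (mean ± SD, n = 6 each, log2 fold change -0.77). BISPR (chr19:17405686-17419324, plus strand) is named for its link to BST2, or tetherin, a membrane protein that holds enveloped viruses at the cell surface and is induced by interferon. BISPR had 17.1 to 20.8 CPM (median 18.9) in controls and 41.6 to 48.0 CPM (median 45.7) with IRF4 shRNA, and rose 2.41-fold (log2 fold change 1.27, SE 0.06, edgeR adjusted p = 8.65e-11). BST2 had 41.3 to 54.4 CPM (median 46.3) in controls and 142 to 152 CPM (median 149) with IRF4 shRNA, and rose 3.18-fold. Both rose without overlap. MVB12A, which BISPR overlaps on the same strand, was at 5.56 ± 1.22 and 6.88 ± 1.01 CPM (not called).

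The starts of BISPR and BST2 lie 56 bases apart on opposite strands, so the same stretch of promoter lies upstream of both. It is printed here, from RefSeq on GRCh38, because the 2 genes rose together. Capitals mark the bases between the start of BST2, which reads leftward from the left end, and that of BISPR, which reads rightward.
BISPR, chr19:17405631-17405735, plus strand: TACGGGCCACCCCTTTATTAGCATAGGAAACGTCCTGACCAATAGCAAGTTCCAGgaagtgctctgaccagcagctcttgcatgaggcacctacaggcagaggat

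PSMB8-AS1 (chr6:32844078-32846500, plus strand) lies among genes for antigen processing. It had 20.1 to 23.7 CPM (median 22.3) in controls and 24.5 to 28.4 CPM (median 26.8) with IRF4 shRNA, a 1.202-fold rise (log2 fold change 0.27, SE 0.05, edgeR adjusted p = 0.00052), a call lost in series 2 alone and with counts summed within each series. The 3 protein-coding genes it overlaps rose too: PSMB8 and PSMB9, subunits of the immunoproteasome, by 0.40 and 0.92 on the log2 scale, and TAP1, a peptide transporter, by 0.78. HCP5, an lncRNA of the HLA region, was at 45.5 ± 2.31 and 43.0 ± 2.81 CPM (mean ± SD, n = 6 each, not called), while its nearest protein-coding gene MICB rose (log2 fold change 0.72).

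Other large rises follow, with their neighbours. AC004847.1, 1.8 kb from MYO1G, a myosin of blood cells, rose 2.02-fold, and MYO1G 1.78-fold (from 144 ± 14.6 to 256 ± 22.0 CPM). PCED1B-AS1 had 26.1 to 30.4 CPM (median 28.4) in controls and 50.2 to 57.9 CPM (median 53.6) with IRF4 shRNA, a 1.91-fold rise, and PCED1B, which it overlaps on the other strand, rose 1.67-fold. CARD8-AS1 rose 1.90-fold and CARD8, an inflammasome sensor that starts 271 bases away, rose by 0.26 on the log2 scale (not called with counts summed within each series). AC010733.1 lies within REL, a subunit of NF-kB, on the same strand. It varied between libraries, with 6.01 to 21.8 CPM (median 17.6) in controls and 22.6 to 37.8 CPM (median 25.4) with IRF4 shRNA (log2 fold change 0.76, SE 0.23, edgeR adjusted p = 0.0145), and REL rose from 146 ± 14.1 to 262 ± 16.7 CPM (0.85). Reads from AC010733.1 and REL may not be separable, since the lncRNA lies within the gene. AC025569.1 rose 1.67-fold. AC007384.1 rose 1.91-fold, while its neighbour KMT2E was not called.

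Of the 10 microRNA host transcripts (names beginning with MIR and ending in HG) 4 rose, 3 fell and 3 were not called. The mature microRNAs were not measured in these libraries. Within the spans of 23 of the 249 lncRNAs lie 52 mature microRNAs of RefSeq (GRCh38), and for most of the hosts described next the arm that names the host, or the best known arm, is printed with the seed, bases 2 to 8, in capitals. The seed pairs with target messenger RNAs. They follow the order in which their hosts are described.
hsa-miR-146a-5p: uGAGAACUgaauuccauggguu
hsa-miR-155-5p: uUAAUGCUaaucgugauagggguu
hsa-miR-22-3p: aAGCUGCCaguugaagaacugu
hsa-miR-600: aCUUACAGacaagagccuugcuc
hsa-miR-4432: aAAGACUCugcaagaugccu
hsa-miR-4453: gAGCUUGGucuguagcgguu
hsa-miR-4435: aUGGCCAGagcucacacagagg
hsa-miR-29b-3p: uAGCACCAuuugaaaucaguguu
hsa-miR-29c-3p: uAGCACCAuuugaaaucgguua
hsa-let-7a-5p: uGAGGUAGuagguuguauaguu
hsa-let-7d-5p: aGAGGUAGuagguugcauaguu
hsa-let-7f-5p: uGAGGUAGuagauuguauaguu
hsa-miR-142-5p: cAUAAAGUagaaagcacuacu
hsa-miR-142-3p: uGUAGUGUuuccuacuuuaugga

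MIR3142HG (chr5:160438594-160487426) hosts miR-146a, which dampens signalling through NF-kB. It had 51.4 to 64.1 CPM (median 56.1) in controls and 132 to 148 CPM (median 142) with IRF4 shRNA, and rose 2.49-fold (log2 fold change 1.31, SE 0.05, edgeR adjusted p = 3.38e-11). All IRF4 shRNA libraries were above 2 times the highest control. PTTG1, the nearest protein-coding gene, rose by 0.19 on the log2 scale, a call lost in series 2 alone and with counts summed within each series. MIR155HG (chr21:25561909-25575168), once called BIC, hosts miR-155, a microRNA that is abundant in lymphomas of the activated B cell subtype. It had 54.2 to 70.1 CPM (median 59.7) in controls and 74.1 to 86.5 CPM (median 82.2) with IRF4 shRNA, a 1.35-fold rise (log2 fold change 0.43, SE 0.06, edgeR adjusted p = 2.26e-05) without overlap. MIR22HG rose from 9.55 ± 1.21 to 14.8 ± 0.892 CPM and WDR81, whose start it overlaps on the other strand, rose as well (log2 fold changes 0.63 and 0.42). MIR600HG rose from 26.2 ± 1.65 to 35.9 ± 2.86 CPM (log2 fold change 0.45).

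MIR4432HG (chr2:60336446-60439828) fell from 95.5 ± 8.13 to 64.9 ± 7.54 CPM (log2 fold change -0.56), and BCL11A, a zinc finger gene of B cells 10.7 kb away, fell by 0.39 on the log2 scale. MIR4453HG fell from 25.8 ± 1.80 to 16.6 ± 0.997 CPM (-0.63), and FBXW7, the ubiquitin ligase subunit that starts 172 bases away, fell by 0.25. MIR4435-2HG fell slightly, from 63.7 ± 1.498 to 58.0 ± 2.35 CPM (-0.13), with overlapping libraries, and was not called with library size alone, in series 1 alone or with counts summed within each series. CYTOR and MIR4435-2HG, at distant positions on chromosome 2, both span a copy of miR-4435 and are near-identical copies in part, so that reads could be divided between them. MIR29B2CHG was at 104 ± 8.96 and 109 ± 4.66 CPM, MIR193BHG at 34.0 ± 1.85 and 32.6 ± 0.980 CPM and MIRLET7A1HG at 12.7 ± 1.54 and 14.1 ± 0.617 CPM, and none of them was called. The printed arms within the first share the seed AGCACCA (miR-29b-3p and miR-29c-3p) and those within the last the seed GAGGUAG (the 5p arms of let-7a, let-7d and let-7f), while their other arms have other seeds. AC004687.1 (chr17:58330884-58332508), which spans miR-142, a microRNA of blood cells, was at 164 ± 22.1 CPM in the controls and 163.9 ± 18.7 CPM with IRF4 shRNA (log2 fold change -0.002, edgeR adjusted p = 0.986). Of 13 genes of microRNA processing 4 rose by at most 0.18 on the log2 scale (AGO2, DROSHA, TNRC6B and XPO5) and PRKRA fell by 0.25.

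**Figure D3:**
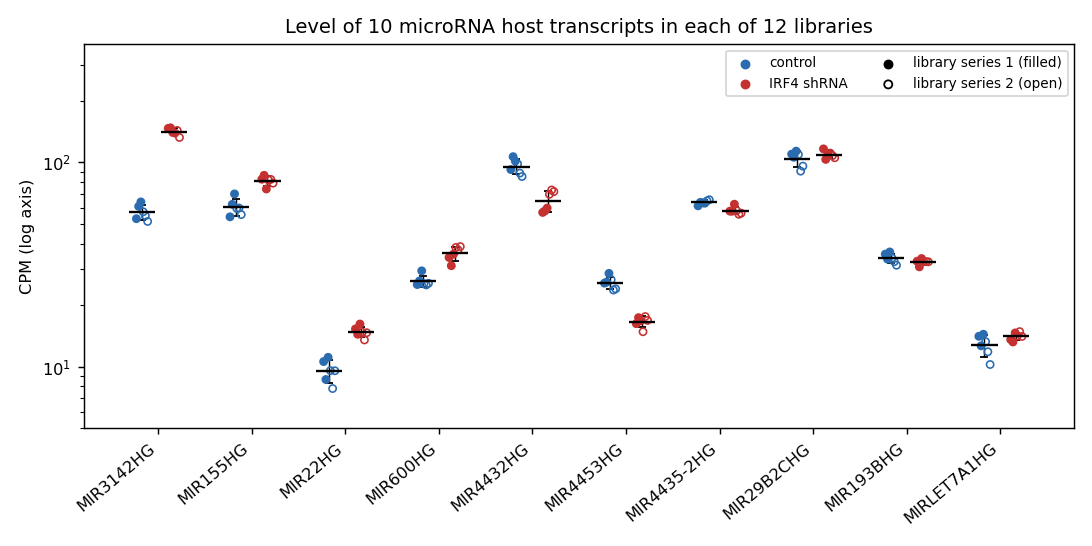
The CPM (log axis) of the 10 microRNA host transcripts in each of the 12 libraries, with filled points for library series 1 and open points for series 2, and the mean and SD (n = 6) of each group in black. MIR3142HG, MIR155HG, MIR22HG and MIR600HG are higher with IRF4 shRNA in every library, and MIR4432HG and MIR4453HG are lower in every library.

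For the position of the 249 relative to protein-coding genes, the nearest protein-coding gene by the gap between gene bodies was tested for 217. Among 39 that rose this gene rose in 14 and fell in 5, and among 81 that fell it fell in 33 and rose in 14. Of all tested genes 24.2% rose and 23.9% fell. Among 97 that were not called, this gene was called in either direction in 44. By the distance between start sites the counts were 16 and 5 of 41, 39 and 11 of 83, and 45 of 98. Across the 217 pairs Spearman's rho of the log2 fold changes was 0.24, a description only, since both values come from the same libraries and the genes are not independent.

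The pairs were also counted by their arrangement. Head to head, with starts on opposite strands within 2 kb, there were 83 pairs. Of 37 such pairs in which the lncRNA fell, the partner fell in 21 and rose in 1 (of all tested genes 23.9% fell and 24.2% rose), and of 10 in which it rose, the partner rose in 4 and fell in 2. In 74 pairs that overlap on opposite strands, the partner of a falling lncRNA fell in 10 and rose in 10 of 33, and rho was 0.06. In 45 pairs on the same strand the partner rose in 5 and fell in none of 12 where the lncRNA rose, and fell in 4 and rose in none of 8 where it fell, with a rho of 0.53. Whether the authors' counting used strand is not stated, so reads from an lncRNA and an overlapping partner cannot be told apart with certainty, and on the same strand they cannot be separated where exons are shared. The difference between arrangements was not tested.

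**Figure D4:**
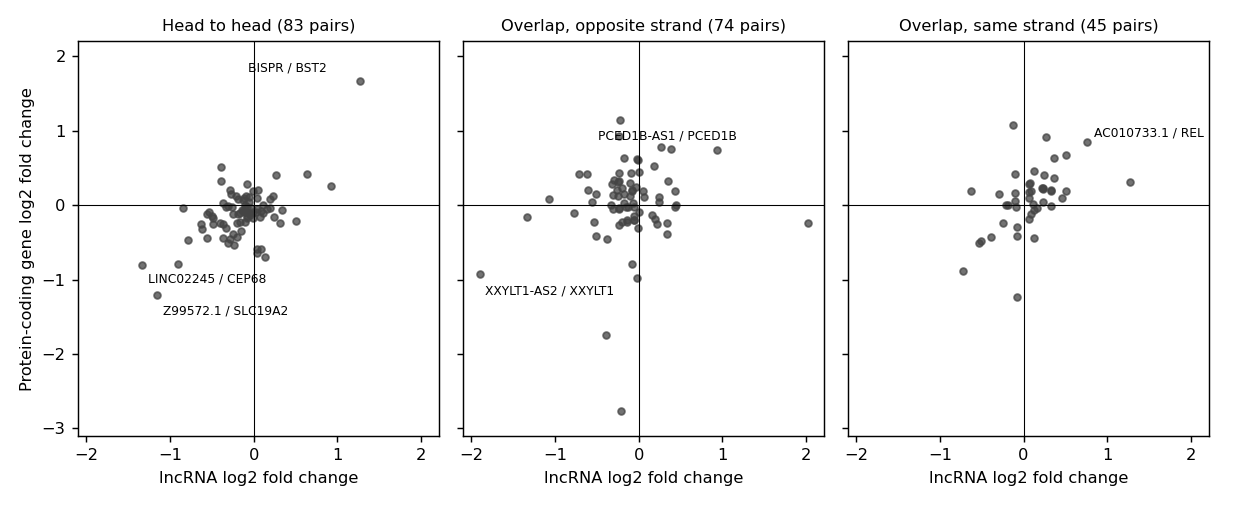
The log2 fold change of each lncRNA against that of its protein-coding partner, for pairs that are head to head (83), overlapping on opposite strands (74) and overlapping on the same strand (45). BISPR with BST2 lies at the upper right of the head-to-head pairs, and Z99572.1 with SLC19A2 and LINC02245 with CEP68 at the lower left.

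Promoters were taken from RefSeq for the 74 of the 249 whose RefSeq start lay within 500 bases of the deposited start, as windows of 250 bases before to 50 after it. The letters GAAANNGAA, the core of the element bound by interferon regulatory factors, were present on either strand in 8 of these 74 and in 8.11% of all 35116 promoters. GGAANNGAA, the composite of an ETS factor with IRF4 or IRF8, was in 6 of 74 and in 7.79% of all, and TGANTCA, the AP-1 site beside which IRF4 can also bind, in 4 of 74 and in 7.71%. Of 13 matched lncRNAs that rose 3 held GAAANNGAA, as did 3 of 31 that fell and 2 of 30 not called. A match describes the letters and not a binding site. BISPR held none of the 3 in its window.

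Promoters of 3 lncRNAs with a match are printed, chosen after their values were seen, each with the matches in capitals. Of the others described above and among these 74, CARD8-AS1 and MIR193BHG also held GGAANNGAA and LINC01215 held TGANTCA. Matches also lay in the RefSeq windows of MIR3142HG (GAAANNGAA and GGAANNGAA), LINC-PINT (GAAANNGAA), CYTOR and MIR4435-2HG (both TGANTCA). Their RefSeq starts lay more than 500 bases from the deposited starts, so they were not counted. In PSMB8-AS1 GGAANNGAA and GAAANNGAA overlap in 1 run. In MIR155HG the first run is GAAANNGAA and the second TGANTCA, and its deposited start lies 236 bases upstream of the RefSeq start. In XXYLT1-AS2 the match to GGAANNGAA is on the other strand.
PSMB8-AS1, chr6:32843836-32844135, plus strand: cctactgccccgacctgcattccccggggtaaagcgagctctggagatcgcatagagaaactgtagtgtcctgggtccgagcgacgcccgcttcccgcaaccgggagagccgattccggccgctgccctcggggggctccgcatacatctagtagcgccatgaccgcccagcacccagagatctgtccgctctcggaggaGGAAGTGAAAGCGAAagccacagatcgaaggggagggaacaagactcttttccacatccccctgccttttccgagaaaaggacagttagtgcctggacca
MIR155HG, chr21:25561895-25562194, plus strand: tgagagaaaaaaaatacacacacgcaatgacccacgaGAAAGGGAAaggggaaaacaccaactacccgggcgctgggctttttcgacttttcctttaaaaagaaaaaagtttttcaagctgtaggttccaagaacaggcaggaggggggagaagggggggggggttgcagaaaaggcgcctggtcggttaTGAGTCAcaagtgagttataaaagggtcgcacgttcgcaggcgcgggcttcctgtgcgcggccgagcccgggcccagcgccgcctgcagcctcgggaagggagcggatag
XXYLT1-AS2, chr3:195147621-195147920, plus strand: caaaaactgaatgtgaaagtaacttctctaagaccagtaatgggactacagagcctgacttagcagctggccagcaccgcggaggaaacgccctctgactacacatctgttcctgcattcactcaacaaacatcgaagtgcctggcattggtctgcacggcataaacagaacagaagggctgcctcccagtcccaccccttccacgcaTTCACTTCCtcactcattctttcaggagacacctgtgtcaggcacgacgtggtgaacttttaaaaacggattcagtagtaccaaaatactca

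Within library series 1, 53 of the 249 rose (25.8% of all tested genes) and 98 fell (24.6%). Within series 2, 43 rose (20.2%) and 69 fell (17.9%). Both series called 31 of the 249 higher and 59 lower, beside 2337 higher and 2027 lower of all 16437 tested genes. They called 1 of the 249 in opposite directions, AC004687.1, which spans miR-142, beside 175 of all tested genes. In series 2 the number that rose fell to 28, 26 and 27 without IRF4 shRNA replicate 4, 5 or 6.

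The size of the effect differed between the series for 32 of the 249 (interaction of series and group, edgeR adjusted p under 0.05). This was no larger a share than the 13% of all tested genes. Of the 9453 genes with a mean of at least 10 CPM, 1776 were called. The count of 32 rested on single libraries. It was 15, 16, 72, 15 and 21 without control replicate 2, 3, 4, 5 or 6, and 14, 18, 11, 19, 12 and 12 without IRF4 shRNA replicate 1 to 6 in turn. Of the 10 largest falls over all 12 libraries 8 were larger in series 1, and of the 10 largest rises 6 were, a split that was not tested. AL365361.1 fell by 4.35 in series 1 and by 2.96 in series 2 on the log2 scale, XXYLT1-AS2 by 2.32 and 1.58, and MIR4432HG by 0.79 and 0.33. MALAT1 rose by 0.39 in series 1 and by 0.79 in series 2. These 4 differences were called with any 1 of the 12 libraries left out.

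**Figure D5:**
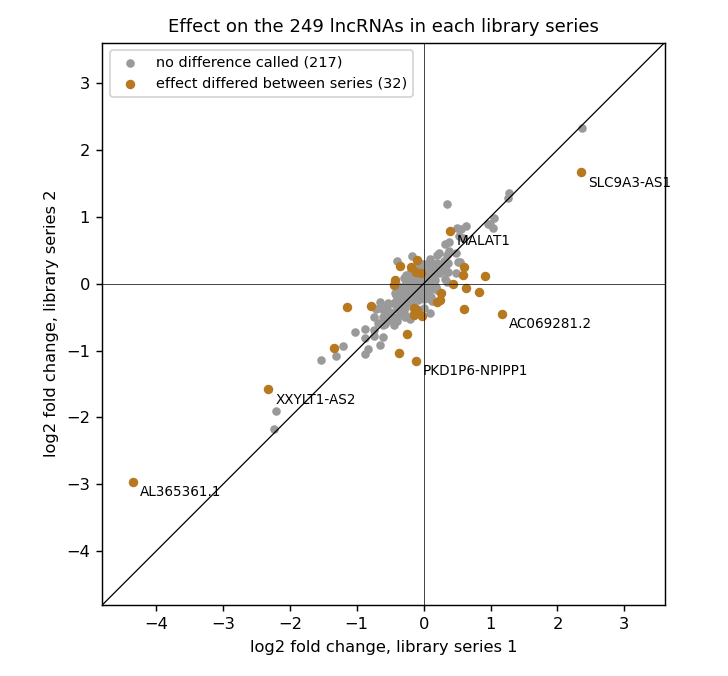
The log2 fold change of each of the 249 lncRNAs in library series 1 and in series 2, with the line of equal effects, coloured where the interaction was called (32). AL365361.1 and XXYLT1-AS2 lie above the line on the side of falls, and SLC9A3-AS1 below it on the side of rises.

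Replicates of a group were close for most of these lncRNAs. The coefficient of variation over 6 libraries had a median of 8.24% in controls and 6.28% with IRF4 shRNA. It was highest in the controls for AC069281.2 (48.8%), AC010733.1 (35.9%) and AC067852.2 (30.5%). Some names join several genes or pseudogenes, such as PKD1P6-NPIPP1 (26.5% in controls) and SLX1A-SULT1A3 (23.9%), and their counts may include reads of near-identical copies.

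Around the minimum of 10 CPM, the members just inside were AC024560.4 at 10.01 CPM, ZNF529-AS1 at 10.1 CPM and AL133367.1 at 10.1 CPM. The lncRNA rows just outside were LINC01278 at 9.99 CPM, FP236241.1 at 9.99 CPM and DLGAP1-AS1 at 9.92 CPM. TUG1, a well known lncRNA at 349.9 CPM in controls, has the biotype protein_coding in the deposited table and was not among the 249.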

How the data were processed

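Poly(A) RNA of 12 TMD8 libraries was prepared with a TruSeq stranded kit from pellets taken at 24 h and read as paired 100 bp ends, per the labels' protocols. STAR, HTSeq and the build hg38 appear in the submitters' processing notes, without versions. The table as deposited by the authors holds the estimated count of each of 26318 genes, without normalization; 66.6% of the values are whole (tolerance 1e-06). The step that gave fractions, the annotation release and whether counting used strand are not given in the sources used here.

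Counts were rounded and tested with edgeR 4.0.16 in R 4.3.3 (quasi-likelihood, TMM, filterByExpr with a minimum count of 10), over all 12 libraries without covariates, within either library series, and for the series-by-group interaction. Adjustment was by Benjamini-Hochberg over all tested genes. Levels are CPM on TMM-scaled library sizes. Deposited ends lie 1 past the last base and were reduced by 1. Exon lengths (GENCODE release 29) were found for 238 of the 249. Pipelines were tested on simulated data.

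The members and lists were chosen with earlier results of these data known. Named lncRNAs are the 10 largest called rises and falls, the 8 most abundant, up to 6 with the smallest interaction p, all MIR...HG hosts, members of fixed role lists, those next to the 10 CPM minimum and the protein-coding neighbours of the largest changes. Other members named (coefficient of variation, pairs of copies, NRAV) and TUG1 were chosen after their values were seen. Alternatives included DESeq2 1.42.0, other scalings, filters, blocks, a GC correction and leaving out libraries. Paired numbers are treated in the closing section.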

Additional observations from a re-analysis of the deposited data

Results flagged for a closer look

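In groups of 6 libraries, 4 values of the named lncRNAs stood apart from the other 5 by Dixon's criterion, of 102 groups examined, where chance flags about 1 in 20. Over all 249 lncRNAs 19 of 498 groups did. FTX, an RNA of the X inactivation centre, was lowest in control replicate 6 (34.8 CPM, others 46.5 to 51.8). HCP5 was highest in IRF4 shRNA replicate 2 (48.6 CPM, others 40.8 to 42.9). MIR4435-2HG was highest in IRF4 shRNA replicate 3 (62.4 CPM, others 55.7 to 58.1). MIR600HG was highest in control replicate 3 (29.5 CPM, others 25.1 to 26.3).

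The effect of IRF4 shRNA differed between the 2 library series for 12 named lncRNAs by the edgeR interaction test. As the effect in series 2 minus that in series 1, on the log2 scale, the difference was 1.37 for AL365361.1, 0.72 for XXYLT1-AS2, 0.37 for MALAT1, 0.44 for MIR4432HG, -0.72 for ARHGAP27P1-BPTFP1-KPNA2P3 and -0.43 for AC010247.1. These 6 were called with any 1 of the 12 libraries left out. The difference was -0.52 for AC004687.1, called in 8 of the 12 fits with 1 library left out. It was -0.24 for NEAT1 (4 of 12), -0.71 for SLC9A3-AS1 (2 of 12), 0.26 for EBLN3P (2 of 12), 0.18 for NORAD (1 of 12) and 0.37 for Z99572.1 (1 of 12). IRF4 itself had a log2 fold change of -1.53 in series 1 and -1.05 in series 2 (edgeR interaction adjusted p = 0.00106). What the series stand for is not given in the labels, so hairpin, depth of knockdown, culture, library and sequencing cannot be told apart.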

How the results depend on the processing

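The numbers that rose and fell among the 249 lncRNAs (47 and 93) stayed within 1.5 times of these values with DESeq2 or its size factors, library size alone, no filter, library series as a covariate, a GC correction, either series alone and without control replicates 5 and 6, and were 39 and 74 among the 221 that reached 10 CPM in both groups (an alternative chosen after seeing the data). With 1 library left out they were 46 to 53 and 82 to 98. Summing the counts of each group within a series (2 against 2) gave 23 and 53, with fewer values per group. With a minimum mean of 5 CPM they were 76 and 168, with 20 CPM 27 and 44, and at 2-fold or more 5 and 8. The interaction count (32) was 11 to 72, the series 1 counts (53 and 98) 40 to 53 and 85 to 106, and the series 2 counts (43 and 69) 26 to 59 and 54 to 84 with 1 library left out; the cause was not tested. Replicates with the same number in their titles did not deviate together (correlations from -0.26 to 0.13), which cannot show whether libraries were paired. With these numbers as a replicate block 47 rose and 80 fell. In the library names IRF4 shRNA replicates 5 and 6 come in the reverse order, and pairing by those names was not tested.

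Of 71 named lncRNAs and neighbours over 23 other settings, only effects that were not called over all 12 libraries changed sign, with log2 fold changes as follows and no cause tested. With library size alone: AC004687.1 0.072, MIR193BHG 0.014, FTX 0.016. With no filter AC004687.1 was 0.0073, and with the replicate block 0.00054. In series 1 alone: EBLN3P -0.11, NORAD -0.039, AC004687.1 0.25 (called higher there), ATP13A3 -0.070. In series 2 alone: LINC00926 -0.042, ARHGAP27P1-BPTFP1-KPNA2P3 -0.070, AC010247.1 -0.15, MIR193BHG 0.010, FTX 0.083, MVB12A -0.011. Without control replicates 5 and 6: EBLN3P -0.049, AC004687.1 0.10, MIR29B2CHG -0.0081, ATP13A3 -0.0069. With 1 library left out, AC004687.1 was -0.045 to 0.048, LINC00926 -0.012 to 0.045 and EBLN3P -0.012 to 0.062. The call of AL133367.1 was lost in 9 settings, those of AC079466.1, MIR4435-2HG and SLC1A4 in 3 each, of PSMB8-AS1, GHITM and PTTG1 in 2 each and of NEAT1, PVT1, CARD8 and KCNQ1OT1 in 1 each. Library totals of at least 31292705 counts stand behind these values.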
